A study of Mus musculus with 4 samples.

Results

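The clustered protocadherins of the mouse were followed in tdTomato-positive cells that fluorescence-activated cell sorting (FACS) had enriched from the basal telencephalon with the preoptic area (POA) at embryonic day 16 (E16). Members were chosen by name, as every gene annotated as *Pcdha*, *Pcdhb* or *Pcdhg* on chromosome 18, which gave 58 of the 55573 genes counted. The alpha cluster held 14 of them, the beta cluster 22 and the gamma cluster 22. RNA was sequenced from 2 *Dnmt1* WT libraries (*Hmx3-Cre/tdTomato/Dnmt1* WT) and 2 *Dnmt1* KO libraries (*Hmx3-Cre/tdTomato/Dnmt1* loxP2), so that both genotypes carried the *Hmx3-Cre* driver and the tdTomato reporter, on the C57BL/6J background. The *Hmx3* promoter confines Cre, and with it the loss of the floxed *Dnmt1* exons and the reporter, to cells with present or past *Hmx3* expression. Cells were pooled from 12 WT and 6 KO embryos. The sample labels call the libraries of a genotype biological replicates and the study calls them technical duplicates of pooled samples, so SDs and p-values describe the spread between libraries, which may be technical.

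Clustered protocadherins are cadherin-type adhesion molecules that give neurons a molecular identity at the cell surface. Each gene has its own promoter and a large variable exon for the extracellular, transmembrane and first cytoplasmic parts. In the alpha and gamma clusters every variable exon is spliced to constant exons that all members of the cluster share, whereas beta genes consist of a single coding exon. Most members are switched on at random in single neurons, through CTCF, cohesin and distal enhancers, and DNA methylation of the promoters is known to take part in this choice. The C-type members at the ends of the alpha and gamma clusters are expressed in a more regular way. Gamma genes are known to be expressed in astrocytes as well as in neurons. The comparison of *Dnmt1* WT with *Dnmt1* KO asks how the RNA levels of these genes differ once the maintenance DNA methyltransferase is deleted in immature POA-derived interneurons.

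On GRCm38 the alpha cluster spans positions 36930184 to 37187661 of chromosome 18, the beta cluster 37264938 to 37524479 and the gamma cluster 37661793 to 37841873, all on the plus strand. The longest transcripts of the members have a median GC content of 47.3% in the alpha, 46.0% in the beta and 53.0% in the gamma cluster. A base was called unshared where no exon of another gene lay on either strand. Of 182 protein-coding genes without an unshared base, 180 (98.9%) had no count in any library, against 4586 (21.6%) of 21199 genes with at least 500 unshared bases. The constant exons of the alpha and gamma clusters are shared, so the unshared bases of a member lie outside them. Levels of single genes were compared with each other only per kilobase of unshared exon. The sums and shares of clusters below were not divided by length. The median unshared length was 2475 bases in the alpha, 3714 in the beta and 2587 in the gamma cluster. *Pcdhga10* had no unshared base, since the antisense gene *Gm26672* and the other gamma genes covered it, and it was at 0 in all 4 libraries. This says nothing of its expression.

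The 4 libraries held between 8075102 and 9995968 counts, and 3 counts corresponded to 0.294 to 0.372 CPM, that is, counts divided by the library size after TMM scaling. WT replicate 1 stood apart, with mitochondrial rRNA at 8.66% of its counts (95% Wilson interval 8.64% to 8.67%) against 1.51% to 2.32% in the other libraries. Libraries of 1 genotype varied more in WT (biological coefficient of variation 0.234) than in KO (0.103). *Dnmt1* had 3103 and 4557 counts in the WT libraries against 2383 and 2552 in the KO libraries (log2 fold change -0.56, SE 0.14, edgeR adjusted p = 0.0511), and these gene-wide counts include exons that remain in the KO allele. Markers of several other cell types were higher in KO. All 12 astrocyte markers were called higher, with a summed level of 236 to 245 CPM in WT and 4382 to 4621 CPM in KO, and *Gfap* was at 0 in WT. So were 7 of 8 oligodendrocyte markers (130 to 154 CPM in WT, 560 to 580 CPM in KO, *Opalin* at 0 in WT) and 7 of 8 mural cell markers (63.2 to 71.5 CPM in WT, 420 to 426 CPM in KO, *Acta2* at 0 in WT), as well as 1 of 5 markers of oligodendrocyte precursors and 1 of 6 of microglia. Of 8 neuronal markers 2 were called lower, and the sum over the 8 was 5544 to 6096 CPM in WT and 4130 to 4178 CPM in KO. None of 7 GABAergic, 3 preoptic, 6 radial glia and 5 endothelial markers was called by edgeR, DESeq2 or limma-voom. Of these 2, 1, 3 and 3 had an unadjusted edgeR p under 0.05, against 14.6% of all genes tested upward and 8.01% downward. All GABAergic and preoptic markers had log2 fold changes below 0 (medians -0.29 and -0.36). Their sums were 1239 to 1386 and 268 to 273 CPM in WT, and 1061 to 1148 and 216 to 241 CPM in KO. Of the radial glia markers 5 lay above 0, and of the endothelial markers 3. Of 4 choroid plexus markers *Ttr* was called lower, and of 4 blood markers *Hbb-bs*. In such bulk samples fewer cells of a type and less RNA per cell cannot be told apart, and the part of these other cell types in the values below was not tested.

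All but 1 of the 58 members had counts, at levels that differed between the clusters. Gamma genes had the highest median level, 6.74 CPM per kb of unshared exon in WT and 10.0 in KO. Alpha genes followed with 4.59 in WT and 4.16 in KO, and beta genes with 2.25 in WT and 1.61 in KO. The highest level of the family was that of *Pcdhgc3*, a C-type gene whose protein is known to bind Axin1, with 34.0 ± 2.12 CPM per kb in WT (SD, n = 2) and 44.4 ± 7.15 in KO. *Pcdhgb6* with 17.5 in WT, *Pcdhgc4*, which is needed for the survival of many interneurons, with 14.8, and *Pcdhac2* with 14.1 came next. The lowest was *Pcdhb1*, with 1 and 0 counts in the WT and 0 and 3 counts in the KO libraries, which is at the level of 3 counts or below. The C-type genes did not form a uniform group, because *Pcdhac1* had 6.77 and *Pcdhgc5* 2.30 CPM per kb in WT.

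**Figure D1:**
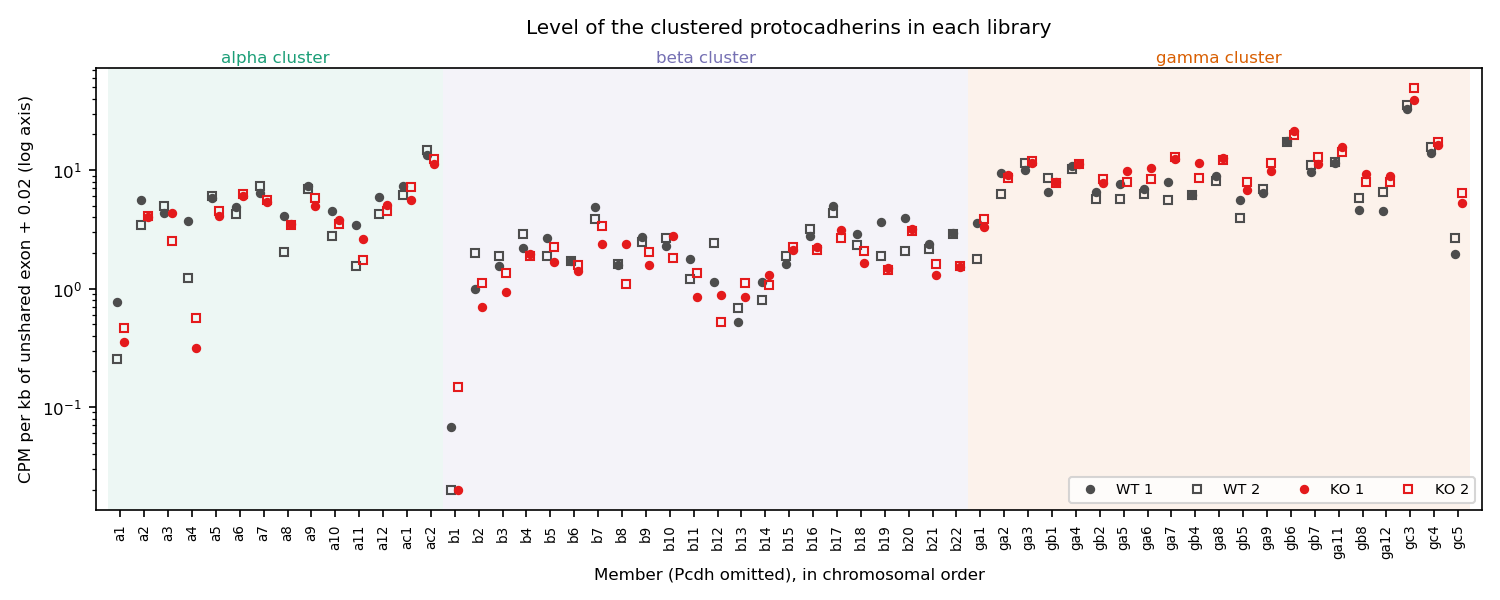
Level of 57 members in each of the 4 libraries, in CPM per kb of unshared exon plus 0.02 on a log axis, in chromosomal order along the x axis (*Pcdhga10*, without unshared exon, is not drawn). WT libraries are grey and KO libraries red, with circles for replicate 1 and squares for replicate 2. The gamma cluster has the highest median, and *Pcdhgc3* the highest level.

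The sum over all members was 876 and 831 CPM in the WT libraries and 941 and 960 CPM in the KO libraries, or 854 ± 32.3 in WT and 951 ± 13.5 in KO (SD, n = 2 each). The 3 clusters lay on different sides of this difference. The gamma cluster summed to 483 CPM in either WT library and to 647 and 657 CPM in KO, 1.35 times the WT mean. The beta cluster summed to 215 and 188 CPM in WT and to 148 and 153 CPM in KO, 0.746 times the WT mean, and the alpha cluster to 179 and 160 CPM in WT and to 146 and 150 CPM in KO, 0.875 times. For each cluster the libraries of the genotypes did not overlap. Among single genes tested, both KO libraries lay above both WT libraries in 28.3% and below them in 25.2%. These sums over chosen genes were given no test.

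The composition of the family does not depend on how libraries are scaled against each other, since it is a ratio of counts within 1 library. Gamma genes held 55.1% of the family's counts in WT replicate 1 (95% Wilson interval 53.9% to 56.2%) and 58.1% in WT replicate 2 (57.1% to 59.2%). They held 68.8% in KO replicate 1 (67.7% to 69.8%) and 68.5% in KO replicate 2 (67.5% to 69.4%). Both KO libraries thus lay above both WT libraries. The intervals cover counting error only, and those of the 2 WT libraries did not touch each other either. The beta share was 24.5% and 22.7% in WT, with intervals of 23.5% to 25.5% and 21.8% to 23.6%, and 15.8% and 15.9% in KO, with intervals of 14.97% to 16.6% and 15.1% to 16.7%. The alpha share was 20.4% and 19.2% in WT, with intervals of 19.5% to 21.4% and 18.4% to 20.1%, and 15.5% and 15.7% in KO, with intervals of 14.7% to 16.3% and 14.9% to 16.4%. Per beta count there were 2.25 and 2.56 gamma counts in the WT libraries and 4.36 and 4.31 in the KO libraries. Between alpha and beta the ratio differed less, with 0.832 and 0.848 alpha counts per beta count in WT and 0.983 and 0.986 in KO.

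**Figure D2:**
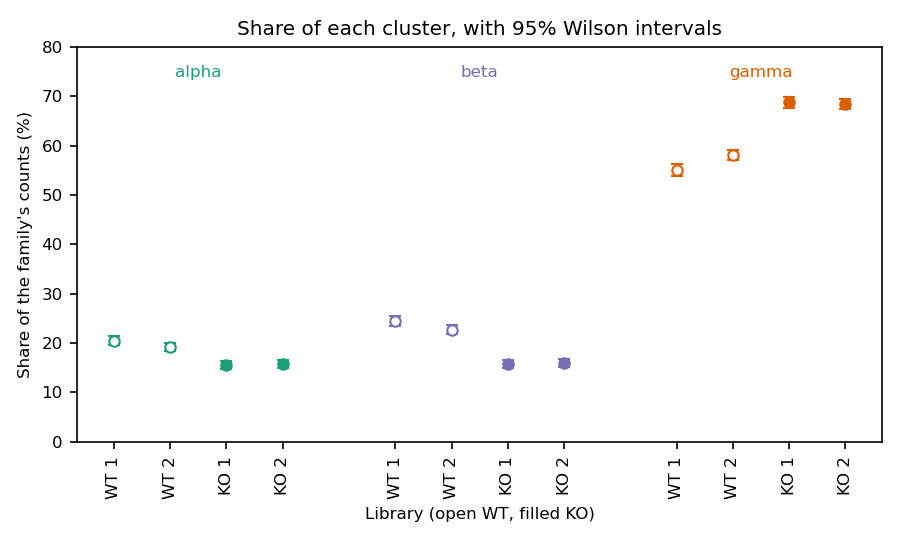
Share of the family's counts (%) held by the alpha, beta and gamma cluster in each library, with WT open and KO filled and with 95% Wilson intervals as bars. The gamma share is 55.1% and 58.1% in WT and 68.8% and 68.5% in KO, while both other clusters have lower shares in KO.

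Gene by gene, 54 members passed the filter on low counts, 13 alpha, 20 beta and 21 gamma genes. Besides *Pcdhga10*, the genes left out were *Pcdhb1*, *Pcdha4* (12 and 5 counts in WT, 1 and 2 in KO, over 404 unshared bases) and *Pcdhb12* (10 and 27 counts in WT, 8 and 5 in KO). Genotypes were compared by the quasi-likelihood test of edgeR across all 16832 genes that passed, with Benjamini-Hochberg adjustment and a threshold of 0.05. It called 3 of the 54 members (5.56%), against 7.9% of all genes tested. *Pcdhgc5* and *Pcdhga7* rose and *Pcdhb22* fell, where 7.33% of all genes tested were called higher and 0.57% lower. The share of members called was thus near that of all genes.

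*Pcdhgc5*, the last gene of the gamma cluster, is known mainly from the postnatal brain. It had 72 and 125 counts in the WT libraries against 204 and 269 in the KO libraries, or 8.94 and 12.2 CPM in WT and 24.3 and 29.6 CPM in KO. Both KO libraries lay above both WT libraries, and the log2 fold change was 1.34 (SE 0.24, edgeR adjusted p = 0.0121). The call held in every alternative fit with all 4 libraries. Log2 fold changes ran from 1.08 to 1.58, also counting the fits with a library left out. Its level stayed below that of the other C-type gamma genes, at 5.85 CPM per kb in KO.

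*Pcdhga7*, a gamma A gene in the middle of its cluster, had 162 and 147 counts in the WT libraries against 268 and 298 in the KO libraries, or 20.1 and 14.4 CPM in WT and 31.9 and 32.8 CPM in KO. The genotypes did not overlap (log2 fold change 0.91, SE 0.21, edgeR adjusted p = 0.0395). Without KO replicate 1 the adjusted p was 0.0904, and without KO replicate 2 it was 0.159.

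*Pcdhb22*, the last gene of the beta cluster, had 145 and 181 counts in the WT libraries against 77 and 86 in the KO libraries, or 2.92 and 2.88 CPM per kb of unshared exon in WT and 1.49 and 1.54 in KO. Here the KO libraries were the lower ones, without overlap, and the log2 fold change was -0.94 (SE 0.23, edgeR adjusted p = 0.0480). The call was lost with DESeq2 (adjusted p = 0.0582), with library sizes in place of TMM, with at least 10 counts asked of every library, and without either KO library (adjusted p = 0.285 in both cases).

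**Figure D3:**
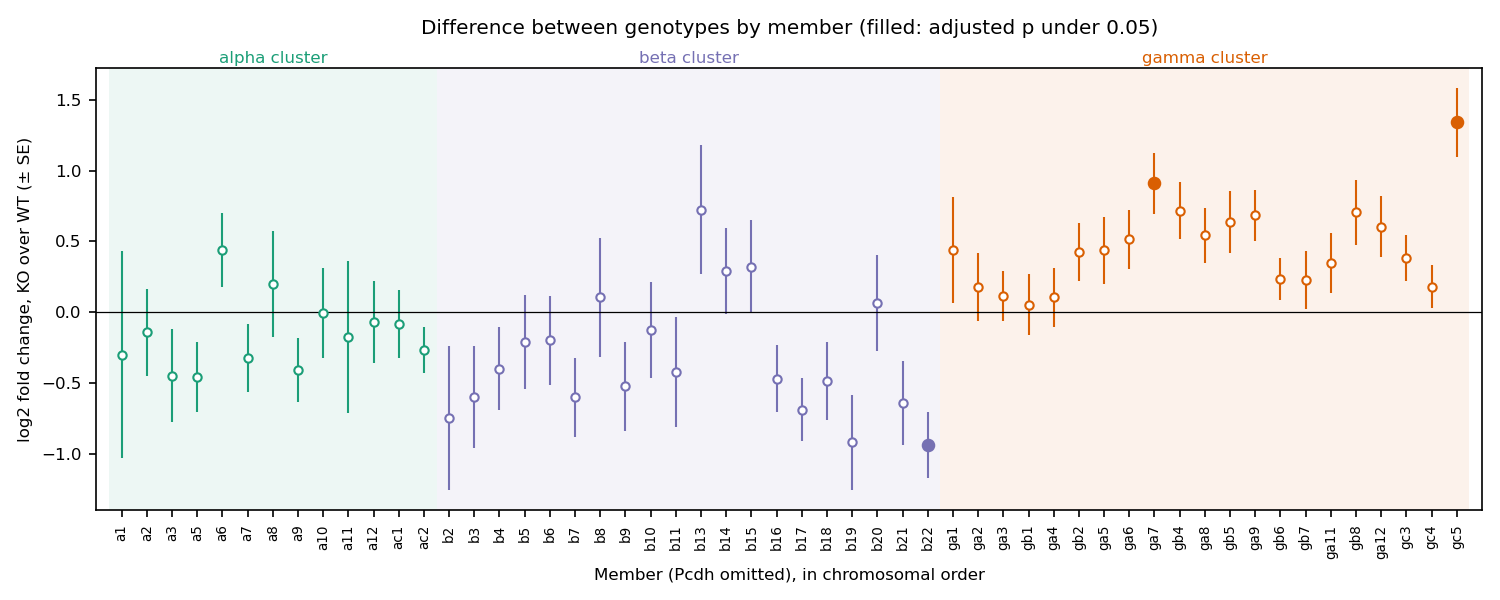
Log2 fold change of KO over WT for the 54 members tested, with standard errors as bars, in chromosomal order along the x axis. Filled points have an edgeR adjusted p under 0.05. All 21 gamma genes lie above 0, and 15 of 20 beta and 11 of 13 alpha genes lie below 0.

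The gamma genes shared 1 direction. All 21 gamma genes tested had a log2 fold change above 0, as did 47.6% of all genes tested, and their median was 0.44 against -0.03 over all genes. In 17 of the 21 both KO libraries lay above both WT libraries, and in none below, where the shares over all genes tested were 28.3% and 25.2%. The 4 with overlapping libraries were *Pcdhga1*, *Pcdhga2*, *Pcdhga3* and *Pcdhgb1*, which stand at the start of the cluster. An unadjusted p under 0.05 was reached upward by 10 of the 21, against 14.6% of all genes tested, although only 2 passed after adjustment. The 10 became 4 without KO replicate 1 (9.84% of all genes tested), 5 without KO replicate 2 (9.28%), 8 without WT replicate 2 (15.4%) and 12 without WT replicate 1 (19.7%). They became 7 with DESeq2 (11.9%) and 4 with the correction with free scaling (12.1%). Gamma A genes (11 tested, median 0.44), gamma B genes (7 tested, median 0.43) and C-type gamma genes (3 tested, median 0.38) had medians above 0, whose order changed with the libraries. They were 0.37, 0.49 and 0.55 without KO replicate 1 and 0.57, 0.37 and 0.21 without KO replicate 2. The higher astrocyte, oligodendrocyte and mural cell markers moved with these values in the same 2 KO libraries, and their part in them was not tested.

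Within the gamma A and B genes the log2 fold changes were on the whole larger in the later part of the cluster, with ranges that overlapped. The 9 tested genes from *Pcdhga1* to *Pcdhga7* had a median of 0.43 (range 0.05 to 0.91), and the 9 from *Pcdhgb4* to *Pcdhga12* a median of 0.60 (range 0.23 to 0.72). The rank correlation of chromosomal order with log2 fold change was 0.45 over these 18 genes, which share the same libraries. It was 0.32 over 11 alpha and -0.15 over 20 beta genes. With gene length and GC content corrected, it was 0.46 over the gamma A and B, 0.32 over the alpha and -0.003 over the beta genes.

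The gamma genes with the highest levels did not pass the test with all libraries. *Pcdhgc3* had 477 and 660 counts in the WT libraries against 602 and 817 in the KO libraries (log2 fold change 0.38, SE 0.17, edgeR adjusted p = 0.217). Its log2 fold change was 0.44 without WT replicate 2 and 0.21 without KO replicate 2. *Pcdhgc4* had 393 and 552 counts in the WT libraries against 477 and 545 in the KO libraries (log2 fold change 0.18, SE 0.15, edgeR adjusted p = 0.512). *Pcdhgb6* had 367 and 453 counts in the WT libraries against 464 and 459 in the KO libraries (log2 fold change 0.23, edgeR adjusted p = 0.398). After scaling, both KO libraries of each of these 3 genes lay above both WT libraries. *Pcdhga11* had 117 and 151 counts in the WT libraries against 164 and 162 in the KO libraries (log2 fold change 0.35), *Pcdhgb7* had 141 and 205 in WT and 172 and 214 in KO (0.23), and *Pcdhga3* had 208 and 306 in WT and 251 and 279 in KO (0.12). These 3 did not pass either, with edgeR adjusted p-values of 0.374, 0.556 and 0.743, and the libraries of *Pcdhga3* overlapped. Without WT replicate 1 the log2 fold change was 0.0072 for *Pcdhga3*, 0.13 for *Pcdhgb7* and 0.10 for *Pcdhgc4*, without WT replicate 2 it was 0.22 for *Pcdhga3*, and without KO replicate 2 it was 0.12 for *Pcdhgb7*. Reads of *Pcdhgc3* cannot be separated from those of the antisense gene *BC037039* where both overlap, and these bases were not counted as unshared.

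Among the beta genes, which reach the surface without the constant cytoplasmic part of the other clusters, 15 of 20 had a log2 fold change below 0. The median was -0.45, with a range from -0.94 for *Pcdhb22* to 0.72 for *Pcdhb13*. The KO libraries were both below the WT libraries for 11 genes and above them for *Pcdhb13* and *Pcdhb15*, or 11 and 2 of 20, where the shares over all genes tested were 25.2% and 28.3%. An unadjusted p under 0.05 was reached downward by 3 genes, *Pcdhb17*, *Pcdhb19* and *Pcdhb22*, and upward by none, where 8.01% of all genes tested reached it downward. The 3 became 5 without WT replicate 1, 6 without WT replicate 2, 2 without KO replicate 2 and 11 with the correction with free scaling, while the share of all genes tested became 13.1%, 16.6%, 2.09% and 33.9%. In these fits the beta count moved in the same direction as the share of all genes, but not in every fit. It stayed at 3 with library sizes alone and with the replicate block, where that share was 3.59% and 11.5%. Without a filter it was 4 of 22, with a share of 6.29%. *Pcdhb19* had 209 and 135 counts in the WT libraries against 89 and 91 in the KO libraries (log2 fold change -0.92, SE 0.33, edgeR adjusted p = 0.152). Its log2 fold change was -0.37 without WT replicate 1 and -1.34 without WT replicate 2. *Pcdhb19* passed edgeR's test without a filter (adjusted p = 0.0189) and with free scaling (0.0131). It also passed with the replicate block and the length and GC correction together (0.0472). *Pcdhb17*, the beta gene with the highest level in WT (4.64 CPM per kb), had 186 and 206 counts in the WT libraries against 122 and 112 in the KO libraries (log2 fold change -0.69, SE 0.22, edgeR adjusted p = 0.111). *Pcdhb7* had 137 counts in either WT library and 70 and 106 in KO (log2 fold change -0.60, SE 0.28, edgeR adjusted p = 0.247). In both genes the KO libraries were lower without overlap, but neither passed the test. Both passed it with the correction with free scaling. *Pcdhb17* also passed with the replicate block and the length and GC correction together (edgeR adjusted p = 0.0474). Without WT replicate 2 the log2 fold changes of *Pcdhb17* and *Pcdhb7* were -0.79 and -0.77. The log2 fold change of *Pcdhb7* was -0.36 without KO replicate 1. The summed neuronal markers were lower in the same KO libraries, and their part in the beta values was not tested.

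No alpha gene was called. The smallest edgeR adjusted p of the 13 tested was 0.316, none had an unadjusted p under 0.05, and DESeq2 and limma-voom called none either. Log2 fold changes lay below 0 for 11 genes and above 0 for *Pcdha6* and *Pcdha8*, with a median of -0.17 and a range from -0.45 for *Pcdha5* to 0.44 for *Pcdha6*. The KO libraries were both below the WT libraries for 4 of the 13 and above them for *Pcdha6*, where 25.2% of all genes tested lay below, so that the alpha count was near that of all genes. Without WT replicate 1, 8 of the 13 lay above 0 and the median was 0.17, while the log2 ratio of the summed alpha level was -0.11, against -0.19 with all libraries. Without WT replicate 2, 13 of 14 alpha genes lay below 0 with a median of -0.34. With library sizes alone, which moved the median of all genes to 0.08, 8 of 13 lay below 0 with a median of -0.04, and the log2 ratio of the sum was -0.078.

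The alpha genes with the highest levels had log2 fold changes below 0 as reported, none past the test. *Pcdhac2*, which is needed for the spacing of serotonergic axons, had 326 and 460 counts in the WT libraries against 286 and 338 in the KO libraries (log2 fold change -0.26, SE 0.16, edgeR adjusted p = 0.375). *Pcdhac1*, the other C-type alpha gene, had 152 and 161 counts in the WT libraries against 119 and 168 in the KO libraries (log2 fold change -0.08, SE 0.24, edgeR adjusted p = 0.878). Its log2 fold change was above 0 with library sizes alone (0.034), without WT replicate 1 (0.044) and without KO replicate 1 (0.11). Its libraries overlapped, while those of *Pcdhac2* did not. *Pcdha9* had 146 and 175 counts in the WT libraries against 103 and 130 in the KO libraries (log2 fold change -0.41, edgeR adjusted p = 0.326). *Pcdha7* had 110 and 161 counts in the WT libraries against 97 and 109 in the KO libraries (log2 fold change -0.32, edgeR adjusted p = 0.462). Both were lower in the KO libraries without passing the test. With the correction with free scaling *Pcdhac2* and *Pcdha9* passed it (edgeR adjusted p = 0.0137 and 0.0362).

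The number of members called depended on the fit, as did that of all genes. DESeq2 called 2 members higher and 0 lower, with 8.87% of all genes tested called, and limma-voom 2 higher and 1 lower, with 7.81%. DESeq2's size factors in edgeR gave 2 higher and 1 lower (8.35% of all genes), library sizes alone 5 and 0 (10.6%), no filter 5 and 2 (7.88%), and at least 10 counts in every library 2 and 0 (6.18%). The fit with a replicate block called 4 higher and 1 lower (13.3%), that with gene length and GC content corrected 6 and 1 (16.2%), both together 7 and 3 (19.6%), and a correction with free scaling 2 and 8 (35.3%). Leaving out WT replicate 1 gave 9 higher and 1 lower (21.3%), WT replicate 2 gave 7 and 4 (23.3%), KO replicate 1 gave 1 and 0 (6%), and KO replicate 2 gave 1 and 0 (5.37%). In each fit apart from the free scaling the members called higher were gamma genes and those called lower beta genes, and with free scaling 3 of the 8 called lower were alpha genes.

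The order of the 3 clusters was the same across the fits. In all 14 alternatives the gamma median was the highest of the 3 and the beta median the lowest. With a library's trend with gene length and GC content removed, the median went from -0.17 to -0.12 for alpha, from -0.45 to -0.32 for beta and from 0.44 to 0.41 for gamma genes, and all 21 gamma genes stayed above 0. Leaving out 1 library gave 19 to 21 gamma genes above 0 and 15 to 16 beta genes below 0. The correction with free scaling, in which the trend of a library may also change its scaling, was chosen after seeing the data. It moved the median of all genes to -0.26 and left 14 of 21 gamma genes above 0, with a median of 0.11.

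**Figure D4:**
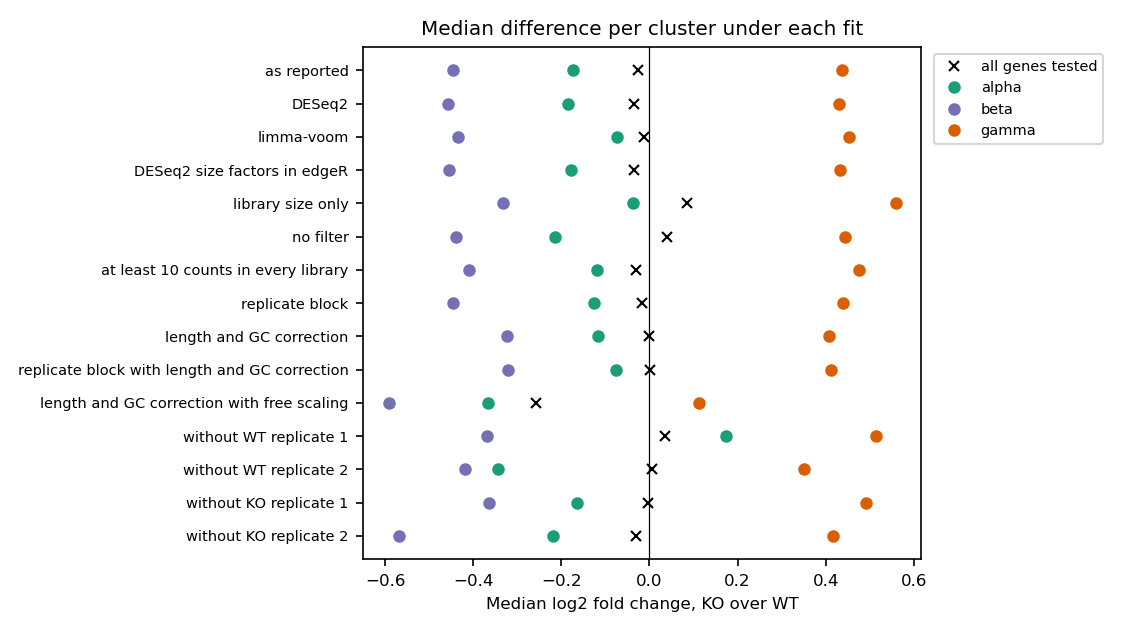
Median log2 fold change of KO over WT (x axis) of the alpha, beta and gamma genes tested and of all genes tested (crosses), for the fit as reported and each of 14 alternatives (y axis). The gamma median is above and the beta median below that of all genes in each fit, and the alpha median is above 0 only without WT replicate 1.

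Genes that act around the family were described from lists of the pathway. The first held 21 genes of the promoter choice machinery, among them *Ctcf*, the cohesin subunit gene *Rad21*, the chromatin silencer *Smchd1* and the methyltransferases. None of the 21 passed edgeR's test, against 7.9% of all genes tested, and 3 had an unadjusted p under 0.05 (*Dnmt1*, *Rad21* and *Lrif1*, all lower), against 14.6% of all genes upward and 8.01% downward. DESeq2 and limma-voom called *Dnmt1* alone (adjusted p = 0.00843 and 0.0358). *Dnmt1* also passed edgeR's test with the replicate block (0.0149) and with the length and GC correction (0.00114). Its log2 fold change was -0.67 without WT replicate 1 and -0.46 without WT replicate 2. It did not pass with library sizes alone (0.151), with at least 10 counts in every library (0.0739), without KO replicate 1 (0.386) or without KO replicate 2 (0.521). Their median log2 fold change was -0.25, with a range from -0.92 to 0.19. *Dnmt3a*, a de novo methyltransferase, had 286 CPM in either WT library and 274 and 309 CPM in KO.

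Among 12 non-clustered protocadherins, which have complete genes of their own, only *Pcdh1* was called, at 614 and 846 counts in the WT libraries against 1205 and 1485 in the KO libraries. Its levels were 76.2 and 82.9 CPM in WT and 143 and 164 CPM in KO, without overlap, and its log2 fold change was 0.95 (SE 0.15, edgeR adjusted p = 0.00603). Without KO replicate 2 the adjusted p was 0.0599. The median of the 12 was 0.04, and 7 lay above 0, so that the direction of the gamma cluster was not seen across this group. Of 10 genes beside or between the clusters 9 were tested, with a median of -0.14. None was called, and *Taf7*, a gene for a subunit of the general transcription factor TFIID that lies between the beta and gamma clusters, was the 1 gene with an unadjusted p under 0.05 (log2 fold change -0.59, edgeR adjusted p = 0.178), where 8.01% of all genes tested reached it downward and 7.9% were called. DESeq2 and limma-voom called none of the 9.

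The proteins that bind clustered protocadherins or act below them, such as the kinases PTK2 and PTK2B and the WAVE complex, were covered by 17 genes. None was called by edgeR, 3 had an unadjusted p under 0.05 (*Cyfip1* upward, *Abi2* and *Marcks* downward), against the same shares of all genes as for the regulators, DESeq2 called *Marcks*, limma-voom called none, and the median log2 fold change was -0.13. *Cyfip1*, a WAVE complex subunit, had 73.5 and 72.3 CPM in WT and 112 and 93.0 CPM in KO. *Marcks*, an actin-binding substrate of protein kinase C, had 921 and 555 CPM in WT and 484 and 387 CPM in KO, with WT libraries that lay further apart than the KO libraries.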

How the data were processed

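RNA-seq of 4 libraries from FACS-enriched tdTomato-positive cells was analysed, 2 per genotype. The values the authors deposited are read counts for each Ensembl gene in each library, not normalized. The submitters' processing notes name CASAVA 1.8.2, STAR 2.5.2a, featureCounts 1.5.0-p1 and mm10/GRCm38. The annotation release, the strand setting and the treatment of reads on shared exons are not given in the sources used here. Of 55573 identifiers, 55480 were matched to GENCODE M21 (GRCm38), which gave symbols, positions, exon overlaps and GC content. It gives the symbol *Pcdha11* to 2 genes, of which the first along the chromosome was called *Pcdha10*, as in RefSeq.

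The expression filter of edgeR 4.0.16 (with limma 3.58.1 in R 4.3.3) left 16832 genes, which were scaled with TMM factors and compared by its quasi-likelihood test with genotype as the only term and Benjamini-Hochberg adjustment over all genes tested. The procedure was tested on simulated counts. Sums, shares and list medians were given no test.

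Values in every library are given for the 5 C-type genes, for members with an adjusted p under 0.05, and for the 2 members of the *Pcdha1* to *Pcdha12*, *Pcdhb*, *Pcdhga* and *Pcdhgb* genes with the highest mean level per kb of unshared exon. Other genes named are those at the ends of a range or behind a small count, chosen after their values were seen. The members and lists were chosen with earlier results of these data known. Alternatives were DESeq2 1.42.0, limma-voom, other scalings, other filters, a replicate block, a correction of trends with the length and GC content of genes, and each library left out in turn, where the genotype left with 1 library was assumed to vary like the other. The length was that of all exonic bases and the GC content that of the longest transcript, so that shared exons could enter both.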

Additional observations from a re-analysis of the deposited data

How the results depend on the processing

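As reported, 1329 genes were called. The count was 2363 without a filter, 883 with at least 10 counts in every library, 2723 with the length and GC correction, and 951 to 4209 with a library left out. Members called higher were 2 as reported, all of them gamma genes, 5 with library sizes alone and 5 without a filter, 6 with the correction, and 1 to 9 with a library left out. Members called lower were 1 as reported, a beta gene, 0 with DESeq2, with library sizes alone and with at least 10 counts in every library, 2 without a filter, and 0 to 4 with a library left out. Regulators called were 0 as reported, 1 with DESeq2, limma-voom and DESeq2's size factors, 2 without a filter or with the correction, and 0 to 12 with a library left out. Signalling partners called were 0 as reported, 1 with DESeq2, 2 without a filter, 4 with the correction, and 0 to 5 with a library left out. Non-clustered protocadherins called ranged from 0 to 4 and flanking genes from 0 to 3 with a library left out. The log2 ratio of the gamma sum, 0.43 as reported, was 0.54 with library sizes alone, which moved the median of all genes from -0.03 to 0.08, and 0.40 with the correction, chosen after seeing the data. *Pcdhac1*, at -0.08 as reported, was at 0.034 with library sizes alone and between -0.28 and 0.11 with a library left out, above 0 without WT replicate 1 (0.044) and without KO replicate 1. With a WT library left out, the spread between libraries came from the KO libraries alone (biological coefficient of variation 0.103). With a KO library left out, it came from the WT libraries alone (0.234). The cause of these changes was not tested.

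The replicate numbers pair the libraries by number only, and the deviations of same-numbered libraries from their group means correlated at 0.137, taken over genes, which are no independent replicates. With the replicate block 2244 genes were called, 4 members higher (all gamma genes), 2 regulators and 3 signalling partners. With the block and the correction together 3292 genes were called, 7 members higher (all gamma genes), 3 lower (all beta genes), 2 regulators, 4 non-clustered protocadherins and 4 signalling partners.

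The correction with free scaling, chosen after seeing the data, called 5942 genes, 8 members lower (3 alpha and 5 beta genes), 10 regulators, 3 non-clustered protocadherins, 2 flanking genes and 9 signalling partners. *Pcdhgc4* was then at -0.12, *Pcdhga3* at -0.20, *Pcdhgb6* at -0.094 and *Pcdhgb7* at -0.098 on the log2 scale. Higher calls were 1233 of 1329 as reported and 1606 of 5942 here, 1922 of 2723 with the first correction, 2029 of 4209 without WT replicate 2 and 2578 of 3878 without WT replicate 1.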
